A study of Mus musculus with 6 samples.

Results

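The genes described here are the nuclear genes for the proteins of the mitochondrial ribosome, taken as every protein-coding mouse gene whose symbol starts with Mrpl or Mrps followed by a digit. The deposited table held 77 of them among 22310 genes, 48 for the large subunit (Mrpl) and 29 for the small subunit (Mrps). 1 further annotated gene was absent from that table and was not analysed here. All 77 had a value above 0 in all 6 libraries, and the main test used no filter on low values. Every listed gene was above 0 in at least 3 libraries, so whether the absent gene had been filtered out before cannot be told. RNA had been sequenced from tumor cells of MMTV-PyMT mice, in which the mouse mammary tumor virus promoter drives the polyoma middle T oncogene in mammary epithelium, with the genotype otherwise labelled WT. The cells had been kept overnight in culture after lineage-positive cells were depleted, and were then sorted into metastasis-initiating cells (MIC, Lin−CD24+CD90+) and nonMIC (Lin−CD24+CD90−). Each population had 3 libraries, numbered 1 to 3 in both, and MIC and nonMIC libraries of the same number were compared as a pair. The paper counts its 3 replicates as independent experiments or tumors, without saying which. The labels do not tie a number to an animal or culture, so the p-values given here measure only the spread between these samples, part of which may be technical.

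The mitochondrial ribosome translates the few messages that the mitochondrial genome encodes, all of which make subunits of the respiratory chain and of ATP synthase. Its rRNAs are made inside the organelle, but every one of its proteins is made in the cytosol from a nuclear gene and imported. The large subunit joins amino acids and guides the new chain to the inner membrane, and the small subunit binds the mRNA and reads its codons. The comparison of MIC with nonMIC asks whether the supply of these messages differs between the populations, which the study compared for their mitochondrial activity.

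The values are normalised read counts, that is reads per gene scaled by the authors to the same total in every library. Between 31467281 and 51759769 reads per library stood behind them, and replicate 3 was the deepest in both populations. The sort can be read in the gene for CD90, Thy1, which had 1509, 301.4 and 755.3 normalised read counts in MIC replicates 1, 2 and 3 and 16.9, 21.1 and 12.6 in nonMIC replicates, a log2 fold change of 5.32 ± 0.41 (SE; limma with the replicate number as a block, adjusted p = 5.31e-05). Its adjusted p was 0.453 with pair 3 left out and 0.816 without the block. Cd24a, which marks both populations, differed by -0.01 ± 0.19 on the log2 scale (adjusted p = 0.984). The 5 epithelial markers were high in all libraries (summed 211658 to 589774 in MIC and 277193 to 697460 in nonMIC). The 6 basal markers were summed at 7814 to 293956 in MIC and 6664 to 74794 in nonMIC. Of these, 4 of 6 (Acta2, Myh11, Krt5 and Trp63) were higher in MIC in all 3 pairs, while Krt14 and Oxtr were lower in pair 2. Both upper sums came from replicate 1, where Acta2 had 230574 in MIC and 48582 in nonMIC. The 8 fibroblast markers were summed at 672.9 to 2167 and 587.7 to 1157, with 4 of 8 higher in all 3 pairs and Lum listed at 0 in at least 1 library. The 4 leukocyte markers in the table were summed at 203.8 to 1970 and 223.3 to 1195, with Ptprc at 0 in at least 1 library. The 4 endothelial markers were summed at 31.1 to 50.7 and 14.8 to 42.8. The 8 proliferation markers were summed at 34011 to 97603 and 46525 to 91093. The part of basal or stromal cells in the results was not tested, and in RNA from bulk sorted cells a smaller share of cells with a message cannot be told apart from less message per cell.

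Of the 77 members, 68 matched a promoter window of 250 bases before to 50 bases after the start in the RefSeq set (GRCm38.p6). Genes of this family are known to be under nuclear respiratory factors, ETS factors of the GABP kind and YY1, so these motifs were searched on both strands. TGCGCA, the core of the NRF1 site, was found in 21 of 68 windows (30.9%), against 13.2% of 11996 protein-coding genes of the table and 8.06% of all 27025 windows. CCGGAAG (ETS) was found in 24 of 68 (35.3%), against 16.0% and 9.12%. GATGGCG (YY1) was found in 8 of 68 (11.8%), against 5.91% and 3.66%. By subunit, NRF1 was in 28.6% of large and 34.6% of small subunit windows, and ETS in 31.0% and 42.3%. CACGTG (E-box) was in 7.35% of the members' windows against 9.49% of the protein-coding genes, GGGCGG (GC box) in 50% against 60.9%, and TATAAA, which binds the TATA-binding protein, in 5.88% against 7.91%. Each motif was counted once per window, whether or not its letters overlapped those of another. The following stretches lie upstream of the start, outside annotated exons, and are shown 5′ to 3′ on the gene's strand. They belong to members whose values are described below, with any of the motifs in capitals. Within its stretch, Mrpl17 has an NRF1 match and a pair of GC boxes, and Mrps22 has an ETS match and a GC box. Mrpl45 has a pair of NRF1 matches, and Mrpl50 and Mrps11 have none. The whole windows counted above hold, outside these stretches, an ETS match for Mrpl17 and a YY1 match and a GC box for Mrps11. The Mrps11 stretch is the whole gap between the first exon of Mrps11 and that of the protein-coding transcript of Mrpl46 on the other strand. A further, non-coding transcript of Mrpl46 starts inside Mrps11, so the spans of the genes overlap.
Mrpl17, chr7:105811100-105811249, minus strand: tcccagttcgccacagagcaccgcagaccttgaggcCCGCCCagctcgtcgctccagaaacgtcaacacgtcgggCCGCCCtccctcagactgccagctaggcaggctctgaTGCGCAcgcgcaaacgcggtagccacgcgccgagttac
Mrps22, chr9:98601680-98601829, minus strand: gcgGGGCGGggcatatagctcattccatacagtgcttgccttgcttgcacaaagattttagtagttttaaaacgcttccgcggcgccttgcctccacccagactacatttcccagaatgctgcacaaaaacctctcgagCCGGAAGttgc
Mrpl45, chr11:97315566-97315715, plus strand: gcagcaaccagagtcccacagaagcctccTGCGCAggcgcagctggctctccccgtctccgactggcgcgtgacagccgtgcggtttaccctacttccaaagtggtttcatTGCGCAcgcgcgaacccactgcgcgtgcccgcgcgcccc
Mrpl50, chr4:49521094-49521175, minus strand: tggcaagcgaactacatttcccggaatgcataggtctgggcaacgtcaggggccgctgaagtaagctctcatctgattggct
Mrps11, chr7:78783090-78783118, plus strand: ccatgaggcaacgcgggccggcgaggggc

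As a description, the 41 members with an NRF1, ETS or YY1 match had a median log2 fold change, MIC over nonMIC, of 0.22, and the 27 without one a median of 0.17. By motif, the medians with and without a match were 0.22 and 0.23 for NRF1, 0.22 and 0.21 for ETS, and 0.15 and 0.23 for YY1. A match of letters says nothing of binding in these cells.

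In pairs 1 and 2 most members had higher values in MIC, and in pair 3 they did not. For the large subunit the median log2 difference, MIC minus nonMIC, was 0.40, 0.37 and -0.06 in pairs 1, 2 and 3, with 46, 39 and 14 of 48 members above 0. For the small subunit it was 0.25, 0.31 and -0.07, with 25, 23 and 5 of 29 members above 0. The medians of all 22310 genes were -0.02, 0.04 and -0.05. The sign in pair 3 depended on the scaling, since after TMM rescaling the medians of pair 3 were 0.01 (large) and -0.003 (small), with 25 of 48 and 13 of 29 members above 0, and after quantile normalization 0.02 and 0.004. Those of pairs 1 and 2 were between 0.20 and 0.52 under either scaling. Summed over the subunit, large subunit genes made up 0.279%, 0.275% and 0.198% of the MIC libraries and 0.217%, 0.211% and 0.209% of the nonMIC libraries. Small subunit genes made up 0.122%, 0.123% and 0.0893% of the MIC libraries and 0.103%, 0.102% and 0.0948% of the nonMIC libraries. The MIC libraries 1 and 2 thus held the highest shares of the 6 for either subunit, and MIC replicate 3 the lowest.

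**Figure D1:**
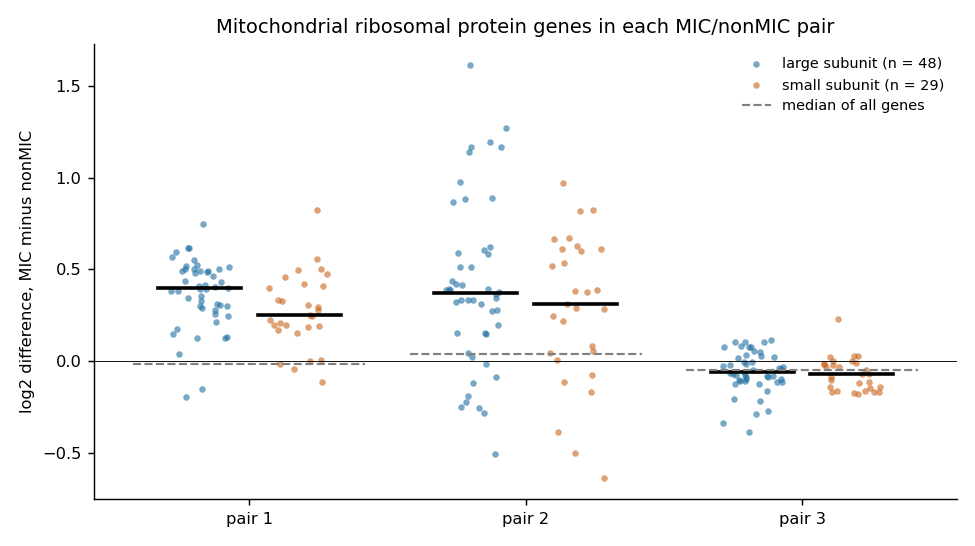
Log2 difference (MIC minus nonMIC) of each of 48 large and 29 small subunit genes in the 3 same-numbered pairs, with 1 point per gene, a black bar at the median of the subunit and a dashed line at the median of all 22310 genes. The medians lie between 0.25 and 0.40 in pairs 1 and 2 and at -0.06 and -0.07 in pair 3.

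No member passed the test. With limma on log2(value + 1) and the replicate number as a block, 0 of 77 members had an adjusted p under 0.05, against 29 of all 22310 genes (0.13%), and the smallest adjusted p among the members was 0.418. Without the block it was 0 of 77, and 0 of all genes (0%), with 1 member at an unadjusted p under 0.05 (1.44% of all genes). The count tests with the block called 0 members as well, where edgeR called 1.41% of all genes and DESeq2 0.889% of the 14957 genes to which it gave an adjusted p, with 12 and 16 members at an unadjusted p under 0.05 (11.7% and 8.58% of all genes). In the block fit of limma, 9 large and 1 small subunit members were higher in MIC at an unadjusted p under 0.05 (5.24% of all genes), and 1 large and 0 small subunit members were lower (5.97% of all genes). The median log2 fold change over the 3 pairs was 0.27 for the large subunit (quartiles 0.12 and 0.36, range -0.36 to 0.59) and 0.16 for the small subunit (quartiles 0.08 and 0.32, range -0.27 to 0.48), against -0.04 for all genes. It was above 0 for 42 of 48 and 22 of 29 members and for 45.8% of all genes. Leaving out pair 3 gave medians of 0.38 and 0.32 with 15 and 7 members at an unadjusted p under 0.05 (10.2% of all genes). In that fit 0 of 77 members and 0 of all 22310 genes were called.

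Direction was the same in all 3 pairs for few members. In all 3 pairs 12 large and 5 small subunit members were higher in MIC (12.5% of all genes), and 2 large and 3 small subunit members were lower (18.8% of all genes). After TMM rescaling, which moves the values of pair 3, the members higher in all 3 pairs numbered 23 and 9. The share of all genes was not counted after this rescaling. All 3 MIC values lay above all 3 nonMIC values for 4 large subunit members, Mrpl18, Mrpl44, Mrpl46 and Mrpl50, and 1 small subunit member, Mrps11 (2.69% of all genes). They lay below for 1, Mrps5 (3.55% of all genes). These 6 were the members for which the exact two-sided permutation test reached 0.1, the smallest p that 3 against 3 libraries allow. Mrpl18 and Mrpl46 were named here after their values were seen. The same holds for Mrpl34, Mrpl52, Mrpl57 and Mrps10, which are named below.

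**Figure D2:**
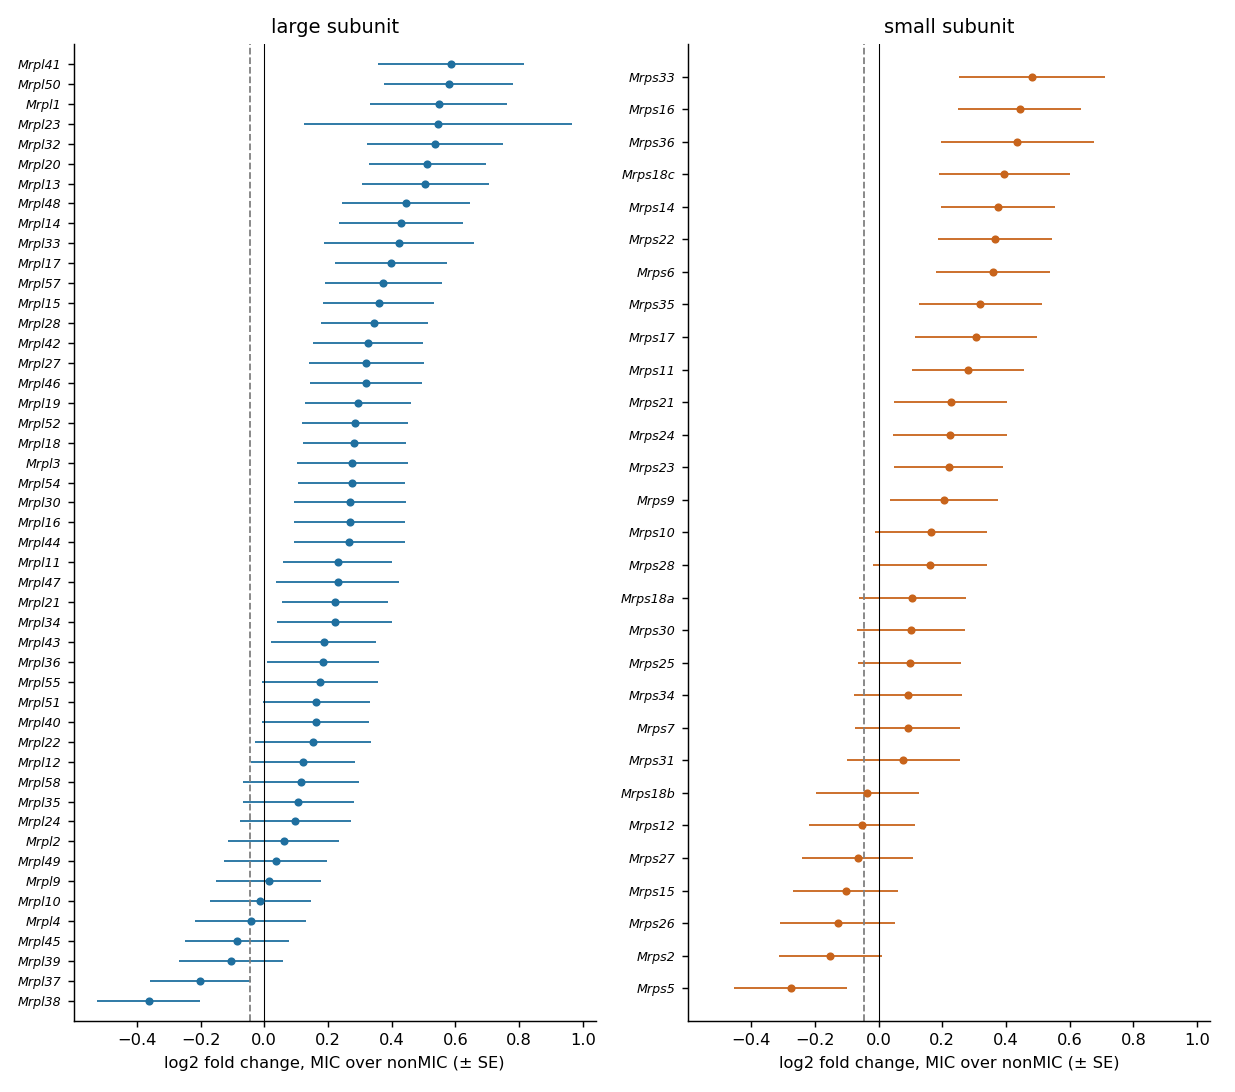
Log2 fold change (MIC over nonMIC, limma with the replicate block) of every member, large subunit on the left and small subunit on the right, ordered by size, with bars of 1 standard error, a solid line at 0 and a dashed line at the median of all genes, -0.04. Fold changes run from -0.36 (Mrpl38) to 0.59 (Mrpl41), and no member passed the adjusted threshold.

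Among the large subunit proteins, Mrpl50, a protein that bacterial ribosomes lack, had the smallest p of all members. The gene (chr4:49512596-49521093) had 2088, 2886 and 1790 normalised read counts in MIC replicates 1, 2 and 3 and 1483, 1286 and 1697 in nonMIC replicates. The MIC values were all above the nonMIC values, with a log2 fold change of 0.58 ± 0.20 (SE, adjusted p = 0.418, limma with the block). Mrpl20 (chr4:155802878-155809975), the counterpart of a bacterial protein that binds the large rRNA, had 4392, 4744 and 2310 in MIC and 2864, 2572 and 2253 in nonMIC. MIC replicate 3 was within the range of the nonMIC libraries, and the log2 fold change was 0.51 ± 0.18. Mrpl41, another protein particular to mitochondria, had 1197, 1731 and 792.5 in MIC and 792.7, 716.3 and 853.5 in nonMIC. Here MIC replicate 3 was below its nonMIC partner, and the log2 fold change of 0.59 ± 0.23 was the highest of the members. Mrpl17 (chr7:105803206-105811099), whose promoter is shown above, had 3697, 3360 and 1655 in MIC and 2200, 2554 and 1598 in nonMIC. It was higher in MIC in all 3 pairs, with replicate 3 lowest in both populations and a log2 fold change of 0.40 ± 0.18 (adjusted p = 0.431).

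Of the large subunit members that were lower in MIC, Mrpl38 (chr11:116131817-116138868) had the smallest p. It had 2697, 2295 and 2020 in MIC and 3089, 3256 and 2646 in nonMIC, and each MIC library was below its partner. The groups overlapped, as MIC replicate 1 was above nonMIC replicate 3, and the log2 fold change was -0.36 ± 0.16 (adjusted p = 0.431). Mrpl37 had 2207, 1803 and 2204 in MIC and 2454, 2193 and 2472 in nonMIC, a log2 fold change of -0.20 ± 0.16. Mrpl39 had 1418, 1636 and 1584 in MIC and 1381, 1913 and 1727 in nonMIC, and its fold change of -0.10 ± 0.16 was within 1 standard error of 0.

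Mrpl2 and Mrpl3 sit next to the peptidyl transferase centre. Mrpl2 had 1406, 1101 and 832.4 in MIC and 1148, 1256 and 786.9 in nonMIC (log2 fold change 0.06 ± 0.17). Mrpl3 had 3126, 2707 and 2274 in MIC and 2206, 1998 and 2457 in nonMIC (0.28 ± 0.17). MIC replicates 1 and 2 were the highest libraries for Mrpl3 and not for Mrpl2. Mrpl4 and Mrpl22 line the exit tunnel, and differed by -0.04 ± 0.17 and 0.15 ± 0.18. Mrpl23, at the mouth of the tunnel, was the lowest member per kilobase of transcript, with 30.4 to 73.4 normalised read counts in the MIC and 23.2 to 42.3 in the nonMIC libraries, and its log2 fold change of 0.54 ± 0.42 has the widest error. Its transcript is identical over 507 bases to that of the pseudogene Mrpl23-ps1, so its counts are uncertain. Mrpl45, which holds the mitoribosome to the inner membrane, had 2018, 1844 and 2645 in MIC and 1849, 2199 and 2887 in nonMIC (-0.08 ± 0.16). In Mrpl45 the replicate 3 libraries were the highest of both populations.

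At the stalk, where translation factors dock, Mrpl10 and Mrpl11 form the base and Mrpl12 the part that reaches out. Mrpl12 had 4988, 4303 and 3317 in MIC and 4046, 3880 and 3530 in nonMIC, a log2 fold change of 0.12 ± 0.16. Mrpl10 differed by -0.01 ± 0.16 and Mrpl11 by 0.23 ± 0.17. The sign of Mrpl10 turned with quantile normalization. Mrpl44, which has an RNase III-like fold, had 1126, 1172 and 918.3 in MIC and 857.3, 897.0 and 904.0 in nonMIC. All MIC values were above all nonMIC values and the log2 fold change was 0.27 ± 0.17 (adjusted p = 0.565). Mrpl58, a peptidyl-tRNA hydrolase built into the large subunit, differed by 0.11 ± 0.18.

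Among the small subunit proteins, Mrps16 (chr14:20389304-20393634), the counterpart of a bacterial protein of the same number, had the smallest p. It had 1387, 1341 and 799.9 in MIC and 782.2, 925.5 and 817.8 in nonMIC. MIC replicates 1 and 2 were above every other library and MIC replicate 3 was not, and the log2 fold change was 0.44 ± 0.19 (SE, adjusted p = 0.430, limma with the block). Mrps33 and Mrps14 followed at 0.48 ± 0.23 and 0.37 ± 0.18. Mrps22 (chr9:98588730-98601660), a protein that bacterial ribosomes lack, had 1531, 1374 and 1011 in MIC and 1112, 899.1 and 993.1 in nonMIC, and was higher in MIC in all 3 pairs with a log2 fold change of 0.37 ± 0.18. Mrps35, also particular to mitochondria and the lowest small subunit member per kilobase, differed by 0.32 ± 0.19.

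Mrps11 and Mrpl46 are the only members here whose neighbour on the other strand, with its start within 500 bases, is a member too. Their annotated spans overlap, so reads in the overlap could be shared unless strand was used in counting. Mrps11 (chr7:78783119-78792989), a protein of the small subunit's platform, had 1096, 1187 and 984.5 in MIC and 894.3, 828.3 and 965.7 in nonMIC. Mrpl46 (chr7:78775236-78783531) had 1302, 1082 and 973.1 in MIC and 878.5, 893.8 and 897.7 in nonMIC. Both were higher in MIC in all 3 pairs with no overlap between the groups, at log2 fold changes of 0.28 ± 0.18 and 0.32 ± 0.17 (adjusted p = 0.553 and 0.498). Starts of 2 genes on opposite strands within 500 bases were found for 25 of 77 members (32.5%), against 12.0% of 15538 protein-coding genes of the table. The 23 neighbours outside the family had a median log2 fold change of -0.18, with 8 of 23 above 0, while their members had a median of 0.16, with 17 of 23 above 0. In pairs 1, 2 and 3 the neighbours' medians were -0.26, -0.05 and -0.10 and those of their members 0.31, 0.20 and -0.04.

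On the other side, Mrps5 (chr2:127587222-127606829), at the entry of the mRNA channel, had 1371, 1043 and 1308 in MIC and 1414, 1626 and 1441 in nonMIC. Every MIC value was below every nonMIC value, and the log2 fold change was -0.27 ± 0.18 (adjusted p = 0.560). Mrps2 had 1179, 1365 and 1356 in MIC and 1274, 1533 and 1529 in nonMIC (-0.15 ± 0.16), and Mrps15, which binds the rRNA, differed by -0.10 ± 0.16. Mrps26 was lower in MIC in pairs 2 and 3 and higher in pair 1 (-0.13 ± 0.18). Mrps7, in the head, differed by 0.09 ± 0.16, and Mrps27, which carries pentatricopeptide repeats, by -0.07 ± 0.17. Mrps12, in the decoding centre, differed by -0.05 ± 0.17, and its values in the libraries are given below.

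The S18 paralogues Mrps18a, Mrps18b and Mrps18c take one place each in the ribosome, Mrps18a in the large subunit despite its name, as does Mrps30. Mrps18c had 895.0, 972.1 and 727.6 in MIC and 631.9, 548.3 and 803.0 in nonMIC, a log2 fold change of 0.39 ± 0.21. Mrps18a and Mrps18b differed by 0.11 ± 0.17 and -0.04 ± 0.16. Mrps36, first listed with the small subunit and since assigned to the 2-oxoglutarate dehydrogenase complex, had 238.3, 300.3 and 143.4 in MIC and 178.9, 189.1 and 122.0 in nonMIC. It was higher in MIC in all 3 pairs (0.44 ± 0.24), and 4 annotated copies share 43.7% to 44.1% of its transcript at 95% identity or more, so its counts are uncertain. Such copies exist for 14 members, but where a copy was in the table it had at most 16 reads in a library, apart from that of Mrps10, AC154457.3, which had 1 to 6 reads in replicates 1 and 2 and 275 and 265 reads in replicate 3.

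**Figure D3:**
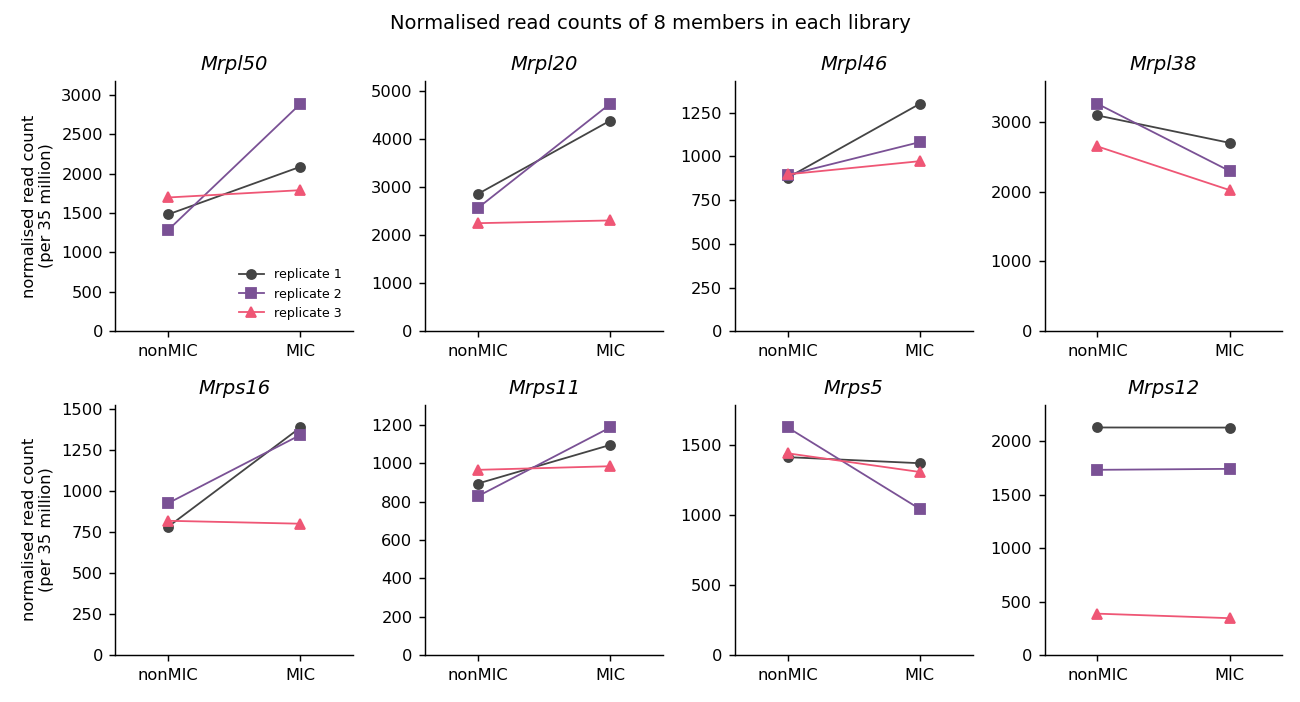
Normalised read counts (linear axis from 0) of 8 members in nonMIC and MIC, with lines joining the libraries of the same number. Mrpl50, Mrpl46 and Mrps11 were higher in MIC in every pair, Mrpl38 and Mrps5 lower in every pair, Mrpl20 and Mrps16 higher mainly in pairs 1 and 2, and Mrps12 differed between replicate numbers and not between populations.

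Levels differed more among members than between populations. Per kilobase of transcript, the mean over the 6 libraries ran from 56.3 (Mrpl23) to 3937 (Mrpl20) for the large subunit, with a median of 1042, and from 252.0 (Mrps35) to 3358 (Mrps21) for the small subunit, with a median of 803.3. Mrps21, the counterpart of a bacterial protein of the same number, differed by 0.23 ± 0.18 between the populations on the log2 scale. A single transcript was taken per gene, so these levels depend on the annotated transcript chosen.

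Some members set replicate 3 apart in both populations. Mrps12 had 2130, 1743 and 344.2 normalised read counts in MIC replicates 1, 2 and 3 and 2131, 1734 and 386.4 in nonMIC replicates. Its replicate 3 libraries differed from the other 4 by -2.40 on the log2 scale, while the populations did not separate. Mrpl57, Mrpl52 and Mrpl34 behaved alike, with differences of -2.21, -1.86 and -1.58 between replicate 3 and replicates 1 and 2, and Mrpl45 lay at the other end with 0.49. In all, 21 of 77 members were lower in replicate 3 by more than 0.5 (27.3%), against 24.1% of protein-coding genes, so that this spread was not confined to the family. Over the 77 members, the deviations of an MIC library and its nonMIC partner from the means of their populations had correlations of 0.85, 0.41 and 0.87 for numbers 1, 2 and 3. Between libraries of different numbers they were 0.59 (MIC 1 with nonMIC 2) and 0.41 (MIC 2 with nonMIC 1), and -0.84 to -0.48 wherever number 3 was set against 1 or 2, so over the members number 3 stood apart while 1 and 2 did not separate. These describe genes that share the libraries. A gene's deviations cancel out within a population, so negative values for unlike numbers follow in part from positive values for like numbers.

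The members have short coding sequences, and in pairs 1 and 2 the differences varied with coding length and GC content among other expressed genes. The median coding length was 588 nucleotides for the members (261 to 1326) and 1482 for the 7695 other expressed protein-coding genes. Among those 7695 genes, Spearman's rho between coding length and the log2 difference was -0.54, -0.40 and -0.04 in pairs 1, 2 and 3, and between the GC content of the transcript and the difference -0.22, -0.60 and -0.05. For transcript length it was -0.50, -0.18 and 0.04, so that coding length had the strongest relation in pair 1 and GC content in pair 2. Among the 77 members it was -0.36, -0.43 and -0.25 for coding length, -0.06, -0.11 and -0.11 for transcript length and -0.31, -0.38 and -0.02 for GC content. These are descriptions across genes of the same libraries, without a test. When the other expressed genes were split into 4 groups of nearly equal size by coding length, the group with the shortest (111 to 918 nucleotides) spanned the lengths of 64 of the 77 members, and in it the median log2 difference was 0.26, 0.22 and -0.02 in pairs 1, 2 and 3. In the group with the longest it was -0.47, -0.26 and -0.04. The 39 members of up to 588 coding nucleotides had medians of 0.41, 0.52 and -0.05, and the 38 longer members 0.29, 0.25 and -0.09. Whether the length of a message sets these differences, or genes that differ between the populations happen to be short, cannot be told apart here.

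**Figure D4:**
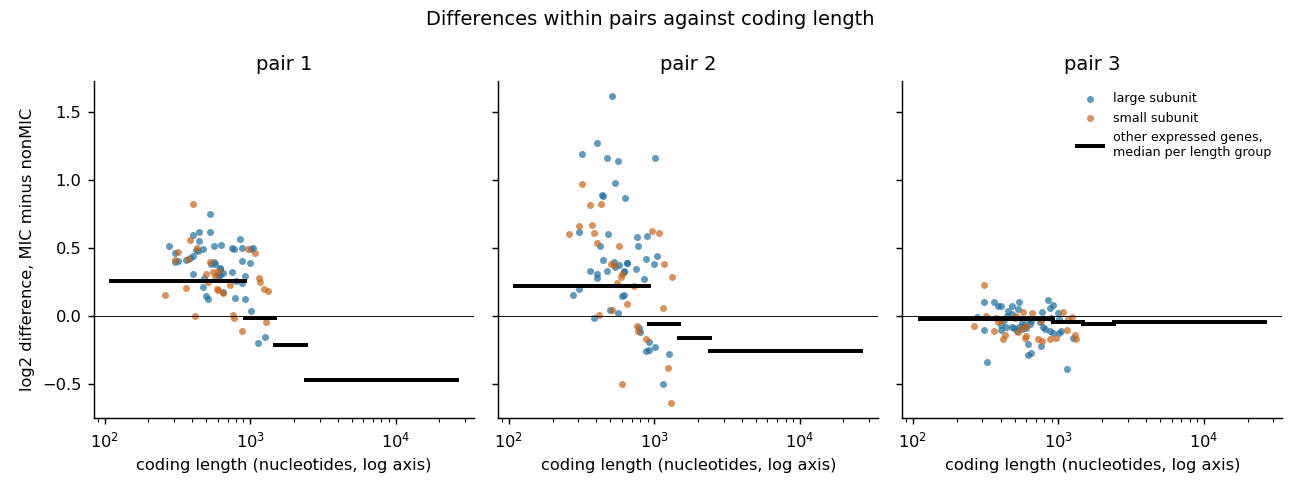
Log2 difference (MIC minus nonMIC) against coding length on a log axis in the 3 pairs, with 1 point per member and black bars at the median of the other expressed protein-coding genes in each of 4 groups by coding length. In pairs 1 and 2 the bars fall from 0.26 and 0.22 for the shortest genes to -0.47 and -0.26 for the longest, and in pair 3 they stay between -0.02 and -0.06.

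When a smooth trend over coding length, transcript length and GC content, fitted in each library on the 7695 other genes, was subtracted, the members' medians came down. The large subunit then had median log2 differences of 0.15, 0.12 and -0.04 in pairs 1, 2 and 3, and the small subunit 0.06, 0.07 and -0.05. The median log2 fold change fell from 0.27 to 0.07 for the large and from 0.16 to 0.003 for the small subunit. Members higher in MIC in all 3 pairs numbered 10 and 6, and members lower in all 3 pairs 7 and 6. Limma with the block again called 0 of 77 members, against 0.193% of the 15538 genes with known length and GC content, and 4 large and 0 small subunit members had an unadjusted p under 0.05. The share of all genes at that cut, or in the same direction in all 3 pairs, was not counted after subtraction. These counts therefore have no background beside them. With length alone subtracted the medians were 0.06 and 0.02, and with GC content alone 0.31 and 0.27, so the medians came down with length and not with GC content. With cytosolic ribosomal, respiratory chain and proteasome genes also kept out of the trend they were 0.08 and 0.01. When length and GC were both subtracted, Mrpl50 stood at 0.24, Mrpl20 at 0.19 and Mrpl41 at 0.32 on the log2 scale. Of the small subunit members with the smallest p, Mrps16 stood at 0.26, Mrps33 at 0.04 and Mrps14 at -0.02. Mrpl38 and Mrps5 stayed negative, both at -0.23.

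**Figure D5:**
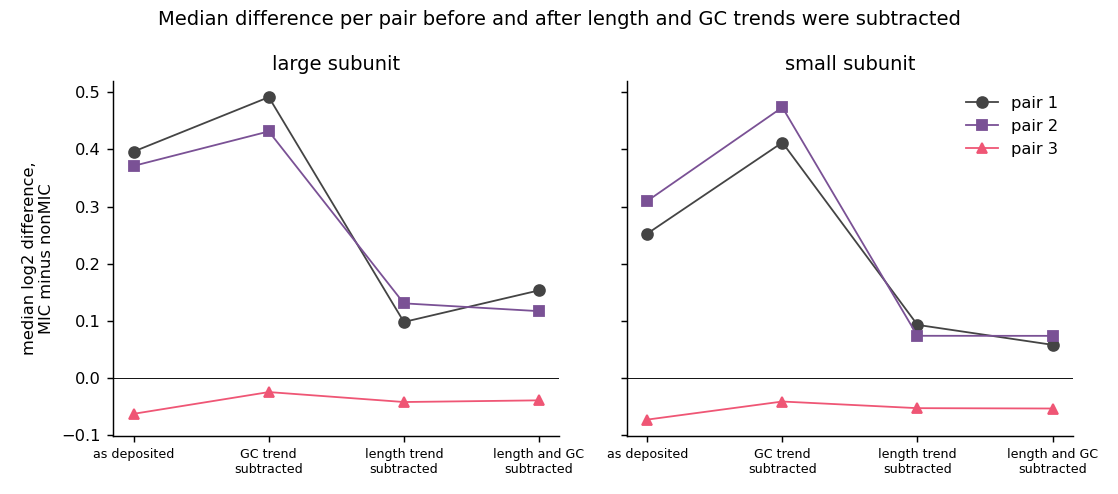
Median log2 difference (MIC minus nonMIC) of the large subunit (left) and small subunit (right) in each pair, as deposited and after trends over GC content, length, or both were subtracted. In pairs 1 and 2 the medians lie at 0.25 to 0.40 as deposited and at 0.06 to 0.15 after both trends were subtracted, and in pair 3 they lie below 0 throughout.

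Other gene families were set beside the members, without a test of the difference. The 78 cytosolic ribosomal protein genes had median log2 differences of 0.47, 0.59 and -0.07, and 0.11, 0.18 and -0.04 after the length and GC trends were subtracted. The 36 nuclear subunits of complex I had 0.50, 0.50 and -0.002, and 0.13, 0.08 and 0.03 after subtraction.

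The remaining machinery of mitochondrial translation was read from lists of its genes. Of 5 mitoribosome proteins whose symbols do not start with Mrp, 0 were called, with median log2 differences of 0.40, 0.29 and -0.09 in the pairs. Chchd1 had the smallest p among them, with 2818, 3178 and 2225 normalised read counts in MIC and 1807, 1465 and 2406 in nonMIC (0.55 ± 0.21, adjusted p = 0.419, limma with the block). Of 26 assembly factors and rRNA-modifying enzymes, 0 were called, with medians of 0.09, -0.05 and -0.11. Fastkd2, an RNA-binding protein needed for the large rRNA, had 2173, 2549 and 2149 in MIC and 1473, 1262 and 2117 in nonMIC (0.53 ± 0.19). Of 15 translation factors and activators, 0 were called, with medians of -0.03, 0.02 and -0.07. Mtrf1, a release factor, had 305.2, 352.6 and 288.1 in MIC and 141.8, 195.5 and 257.4 in nonMIC, with no overlap between the groups (0.70 ± 0.24, adjusted p = 0.418).

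Of the 17 mitochondrial aminoacyl-tRNA synthetases, limma with the block called 0 (0.13% of all genes). EdgeR and DESeq2 with the block called 1 (1.41% and 0.889% of the genes they tested), Lars2, which charges the leucine tRNA. Lars2 had 13664, 4821 and 8802 normalised read counts in MIC and 17039, 9903 and 28158 in nonMIC. It was lower in MIC in all 3 pairs, with a log2 fold change of -1.01 ± 0.23 in limma (adjusted p = 0.200) and adjusted p-values of 8.53e-04 in edgeR and 0.00785 in DESeq2. Its values ran from 4821 to 28158, and those of the 16 other synthetases from 203.4 to 4973. Stretches shared with other transcripts were sought for the members only, so whether Lars2 collected reads of other genes was not tested. Without the block edgeR and limma called 0 of the 17, and 0 of all genes. The medians of the 17 genes in the pairs were -0.14, -0.09 and -0.14, and 8 of 17 were lower in MIC in all 3 pairs (18.8% of all genes). Their medians after the length and GC trends were subtracted were not computed. The lowest log2 fold changes, of Lars2, Sars2, Aars2 and Vars2, were -1.01, -0.58, -0.44 and -0.35 before subtraction. They were -0.79, -0.35, -0.05 and 0.05 after it. Sars2, Aars2 and Vars2 were named after their values were seen.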

How the data were processed

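RNA-seq of 3 MIC and 3 nonMIC libraries was analysed from the deposited table. The deposited signal is read counts per gene that the authors scaled to the total of each library. The paper's methods name stranded mRNA libraries, Bowtie2 and samtools, while the submitters' processing notes name STAR and HTSeq, without versions, and GRCm38. Dividing by the value of 1 read gave whole reads (within 0.01) for 99.99% to 100% of a library's values. These reads limit counting error only. Symbols, positions and lengths came from GENCODE vM21, which held 22161 of 22310 identifiers. The members, lists and tests were chosen with earlier results of these data known.

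Differences were tested with limma 3.58.1 (R 4.3.3) on log2(value + 1), eBayes with trend, the replicate number as block, and Benjamini-Hochberg adjustment over 22310 genes at 0.05. The block rests on the replicate numbers in the labels and on how libraries of a shared number deviate from their population means, with correlations of 0.573, 0.668 and 0.746, against -0.536 to -0.194 for different numbers. A gene's deviations cancel out within a population, so the negative values follow in part from the positive ones. Fold changes on this scale understate those of low genes. The recovered reads were tested with edgeR 4.0.16 (quasi-likelihood) and DESeq2 1.42.0. Genes were named by rule: per subunit the 3 smallest p-values in each direction, up to 3 members of one direction in all pairs, the highest and lowest level per kilobase, a list of members of known role, the smallest p of each other list and any gene past the threshold, and Thy1 and Cd24a. Members and synthetases named after their values were seen fell outside this rule. Length and GC trends were natural splines with 3 degrees of freedom over 1 transcript per gene. Copies were sought with blastn 2.17.0 at 95% identity over at least 25% of a transcript. Limma with and without the block, edgeR and DESeq2 with the block, and limma with both trends subtracted were tested on simulated data. The other alternatives were not. Python 3.11.15, numpy 2.4.6, pandas 2.3.3 and matplotlib 3.10.9 were used.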

Additional observations from a re-analysis of the deposited data

How the results depend on the processing

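No member was called under any alternative run. In limma and edgeR without the block, and in limma without pair 3, 0 of all genes were called either. A count of 0 in those runs therefore says nothing of the members. Counts below are large, then small subunit members. For rescaled and trend-subtracted values, the share of all genes at an unadjusted p under 0.05 or in the same direction in all 3 pairs was not counted. At that p it was not counted either without the eBayes trend, at another pseudocount, or with libraries left out, except without pair 3 (10.2%). The numbers at an unadjusted p under 0.05, 10 and 1 in limma with the replicate block, were 1 and 0 without the block, 0 and 0 without the eBayes trend, and for the small subunit 0 at a pseudocount of 0.1, 2 after TMM rescaling, 6 after quantile normalization, 2 in edgeR and 4 in DESeq2 with the block. Members higher in all 3 pairs numbered 23 and 9 after TMM rescaling and 26 and 12 after quantile normalization, which left 1 small subunit member lower in all 3 pairs. The synthetase call in edgeR (1) and DESeq2 (1) was Lars2. Quantile normalization turned the log2 fold changes of Mrpl4 (0.024), Mrpl10 (0.058), Mrps12 (0.034), Mrps18b (0.024) and Mrps27 (0.0025), and DESeq2 those of Mrpl10 (0.019) and Cd24a (0.017). The length and GC alternatives and edgeR without the block were chosen after seeing the data. With both trends subtracted, 4 and 0 members had an unadjusted p under 0.05, 7 and 6 were lower in all 3 pairs, and the sign turned for Mrps14 (-0.020), Mrps21 (-0.15), Mrpl4 (0.049), Mrpl22 (-0.12), Mrps18a (-0.0050) and Mrps18c (-0.0056). With length alone these counts were 5 and 0, and 6 and 6, and the sign turned for Mrps21 (-0.17), Mrpl2 (-0.022), Mrpl22 (-0.046), Mrpl12 (-0.028) and Mrps18a (-0.081). With GC content alone they were 18 and 7, and 0 and 1, with 19 and 9 higher in all 3 pairs, and the sign turned for Mrps15 (0.033), Mrpl4 (0.22), Mrpl10 (0.10), Mrps12 (0.13), Mrps27 (0.039), Mrps18b (0.077) and Cd24a (0.057). With related families kept out of the trends they were 4 and 0, and 8 and 6, and the sign turned for Mrps14 (-0.021), Mrps21 (-0.13), Mrpl4 (0.055) and Mrpl22 (-0.11). EdgeR without the block gave 1 and 0 members at an unadjusted p under 0.05 (295 of all 22310 genes) and turned Cd24a (0.0017). Leaving out each pair, or each library without the block, gave 0 to 15 large and 0 to 7 small subunit members at an unadjusted p under 0.05, and medians of 0.17 to 0.39 (large) and 0.048 to 0.41 (small). It turned the sign of Mrps26 (-0.44 to 0.16), Mrpl2 (-0.14 to 0.25), Mrpl4 (-0.30 to 0.22), Mrpl45 (-0.24 to 0.088), Mrpl10 (-0.083 to 0.047), Mrpl12 (-0.013 to 0.28), Mrpl58 (-0.071 to 0.32), Mrps12 (-0.82 to 0.77), Mrps27 (-0.20 to 0.12), Mrps18a (-0.010 to 0.26), Mrps18b (-0.11 to 0.019) and Cd24a (-0.21 to 0.22). Beyond what fewer samples or genes bring, the cause of these changes was not tested. Over all genes the block fit called 29 and the fit without the block 0. With 3 pairs the members' standard errors were 0.16 or more on the log2 scale. Even the largest fold change, 0.59 for Mrpl41, could not be told from 0 after adjustment in limma with the block. Reads recovered from the values limit counting error only.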
